A study of Mus musculus with 8 samples.

Results

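The genes examined here encode the nuclear-encoded subunits of respiratory complexes III and IV, cytochrome c and the ATP synthase. They were taken from a table of 23761 genes by symbol: every symbol that starts with Uqcr, Cox4, Cox5, Cox6, Cox7, Cox8 or Atp5, together with Cyc1 and Cycs, with pseudogenes left out. This gave 42 genes, of which 9 were counted to complex III, 15 to complex IV and 17 to the ATP synthase, and 1 is cytochrome c. The 17 include Atp5s and Atp5sl, which carry the prefix but are not core subunits of the enzyme. Their RNA was measured by RNA-sequencing in bone marrow-derived macrophages (BMDMs), which were grown from the marrow of femur and tibia for 6 days in DMEM with medium conditioned by L929 fibroblasts. The control mice (LysM, n = 4) had the genotype LysM Cre/Cre, in which Cre recombinase is expressed from both copies of the lysozyme M gene, and the knockout mice (K2KO, n = 4) had the genotype LysM Cre/Cre KLF2 flox/flox. All mice were 3 months old, and the libraries of both groups were marked as vehicle. Lysozyme M is active in monocytes, macrophages and neutrophils, so Cre acts in the myeloid lineage and both groups carry it. The deposited columns carry the genotype and a number from 0 to 3, without naming the mouse, and their libraries are written as LysM0 to LysM3 and as K2KO0 to K2KO3.

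The respiratory chain moves electrons from NADH and succinate to oxygen across the inner mitochondrial membrane. Complex III passes them from ubiquinol to cytochrome c, complex IV passes them from cytochrome c to oxygen, both add to the proton gradient, and the ATP synthase makes ATP as protons flow back through it. The catalytic core of complex IV, cytochrome b of complex III and a pair of membrane subunits of the ATP synthase are encoded in the mitochondrial genome. All other subunits are made from nuclear genes and imported. Macrophages are known to shift between oxidative phosphorylation and glycolysis with their state of activation. The comparison asked whether the RNA of these nuclear genes differed between the macrophages labelled LysM and those labelled K2KO.

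Promoters of respiratory genes are known for sites of NRF1, a transcription factor of mitochondrial genes, and of the ETS factor GABPA, also called NRF2. The 4 windows, from 200 bases before to 10 after the RefSeq start (GRCm38.p6), are shown because they belong to members of each complex described below and hold these letters, which are in capitals. The first 3 genes were lower in the libraries labelled K2KO and Cox8a did not pass the test.
Uqcr11 (chr10:80406812-80407021, minus strand): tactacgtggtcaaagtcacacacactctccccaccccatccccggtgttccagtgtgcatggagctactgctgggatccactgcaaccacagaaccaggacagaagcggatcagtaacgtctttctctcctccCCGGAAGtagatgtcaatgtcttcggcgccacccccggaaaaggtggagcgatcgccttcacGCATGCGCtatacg
Cox6a1 (chr5:115348949-115349158, minus strand): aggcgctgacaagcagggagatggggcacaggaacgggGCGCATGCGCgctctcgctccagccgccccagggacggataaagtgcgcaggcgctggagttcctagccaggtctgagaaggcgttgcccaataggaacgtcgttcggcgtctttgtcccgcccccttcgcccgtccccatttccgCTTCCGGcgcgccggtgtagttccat
Atp5e (chr2:174464092-174464301, minus strand): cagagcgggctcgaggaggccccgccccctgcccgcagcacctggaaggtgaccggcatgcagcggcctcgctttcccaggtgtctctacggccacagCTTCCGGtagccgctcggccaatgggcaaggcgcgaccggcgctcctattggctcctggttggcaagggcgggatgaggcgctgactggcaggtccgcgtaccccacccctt
Cox8a (chr19:7217607-7217816, minus strand): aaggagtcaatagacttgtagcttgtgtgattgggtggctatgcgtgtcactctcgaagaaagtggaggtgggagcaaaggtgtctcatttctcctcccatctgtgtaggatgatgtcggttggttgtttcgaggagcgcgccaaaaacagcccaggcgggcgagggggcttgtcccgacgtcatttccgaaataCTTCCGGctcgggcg
The capitals in Uqcr11 are an ETS match (CCGGAAG) 66 bases before the start and an NRF1 match (GCGCATGC, here as its reverse complement) that begins 4 bases before it. Cox6a1 has overlapping NRF1 matches on both strands, 162 and 160 bases before the start, and an ETS match 16 bases before it. Atp5e has an ETS match 102 bases before the start, and Cox8a has one 5 bases before it. Of the 42 genes, 33 had a RefSeq window of 250 bases before to 50 after the start. The NRF1 letters, searched on both strands, were in 7 of the 33 (21.2%) and in 2.71% of all 32851 windows of that length, and the ETS letters were in 9 of the 33 (27.3%) and in 8.86% of all windows. Among the 13 members with a window that were lower, 6 held the ETS letters, against 3 of the 18 that were tested and did not pass, and the NRF1 letters were in 2 of the 13 and in 3 of the 18. The difference between these small counts was not tested. The letters of YY1 (AAGATGGCG) were in 2 of the 33 windows (6.06%) against 1.403% of all, those of ERR (TCAAGGTCA) in 1 (3.03%) against 0.423%, and those of CRE (TGACGTCA) in 2 (6.06%) against 1.79%. A match of letters is a description of these windows and not a bound site.

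Klf2, the gene targeted in the knockout mice, was measured at 44.1, 52.9, 64.7 and 72.8 FPKM in LysM0 to LysM3 and at 45.5, 41.6, 59.2 and 59.3 FPKM in K2KO0 to K2KO3. The groups overlapped (log2 fold change -0.18, standard error 0.172, adjusted p = 0.46), and the level was not lower in the K2KO libraries beyond the spread between libraries. The values cover the gene as a whole and do not show which of its exons the reads came from. Directions are therefore stated for libraries labelled K2KO, as the columns name them. Values are FPKM, the fragments of a gene divided by its transcript length and by the size of the library. Levels can therefore be compared between genes, but only roughly. They depend on the transcript length used, and near-identical copies can hold part of the signal, as given below. FPKM carry no read counts, and the depth behind each of them is unknown. The commonest ratios between values under 0.15 FPKM, which are worth few fragments, place the other LysM libraries at 0.973 to 1.24 times the depth of LysM0 and the K2KO libraries at 0.901 to 1.4 times it.

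Of the 42 genes, 39 had a mean of at least 1 FPKM and were tested with limma, and the RNA of 17 members (43.6% of the tested ones) was lower in the libraries labelled K2KO, at an adjusted p under 0.05 and a log2 fold change under -0.26. Over all 10920 genes tested with this rule, 8.61% were lower. No member was higher, while 9.84% of all genes were. Of the 22 members that did not pass, 16 had a negative and 6 a positive log2 fold change. The median log2 fold change was -0.26 over the 39 members and 0.011 over all genes tested. With quantile normalization, which gives all libraries the same distribution of values, it was -0.11 over the members and 0.0022 over all genes. There 4 members were lower, as were 699 of all 10920 genes. In that setting the medians of complex III, complex IV and the ATP synthase were -0.12, -0.080 and -0.12, and the calls of Cox4i1 (log2 fold change -0.080, adjusted p = 0.30) and Cox6b1 (log2 fold change -0.081, adjusted p = 0.261) were among those lost. After the GC content and length correction described below, 5 members were lower, where 3.19% of all genes were, and the members' median was -0.09. Without a filter on low values 2 members were lower (204 of all 23761 genes). With ordinary least squares it was 4 (317 of 10920). In 15 of the 39 members every library labelled K2KO lay below every LysM library, and over all genes this held for 10.2%. The opposite order held for 1 member, Atp5b, and for 12.9% of all genes. In bulk RNA, fewer cells of a type and less RNA per cell cannot be told apart.

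The number of calls depended on single libraries. Without LysM3 or without K2KO2 no member passed, although 20 and 22 of the 39 members had an unadjusted limma p under 0.05, as did 3199 and 3496 of the 10920 genes in the same fits. Over all these genes the number called lower went from 940 to 164 without LysM3 and to 246 without K2KO2. The median log2 fold change of the members was -0.24 without LysM3 and -0.28 without K2KO2, against -0.26 with all libraries. Leaving out LysM1, K2KO0 or K2KO1 left 3 members each, leaving out LysM2 left 7, leaving out LysM0 gave 18 and leaving out K2KO3 gave 20. In the same order, the genes called lower over the whole table numbered 340, 322, 348, 454, 1155 and 1349. All 17 members that passed kept a negative log2 fold change in each of these 8 fits and in 15 other settings, and 11 of the 39 tested members changed sign in at least 1 of them. K2KO3 had the highest value among the libraries labelled K2KO in 16 of the 17 members that were lower, and K2KO0 had the lowest in 14 of them. LysM0 was the lowest LysM library in 10 of the 17.

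**Figure D1:**
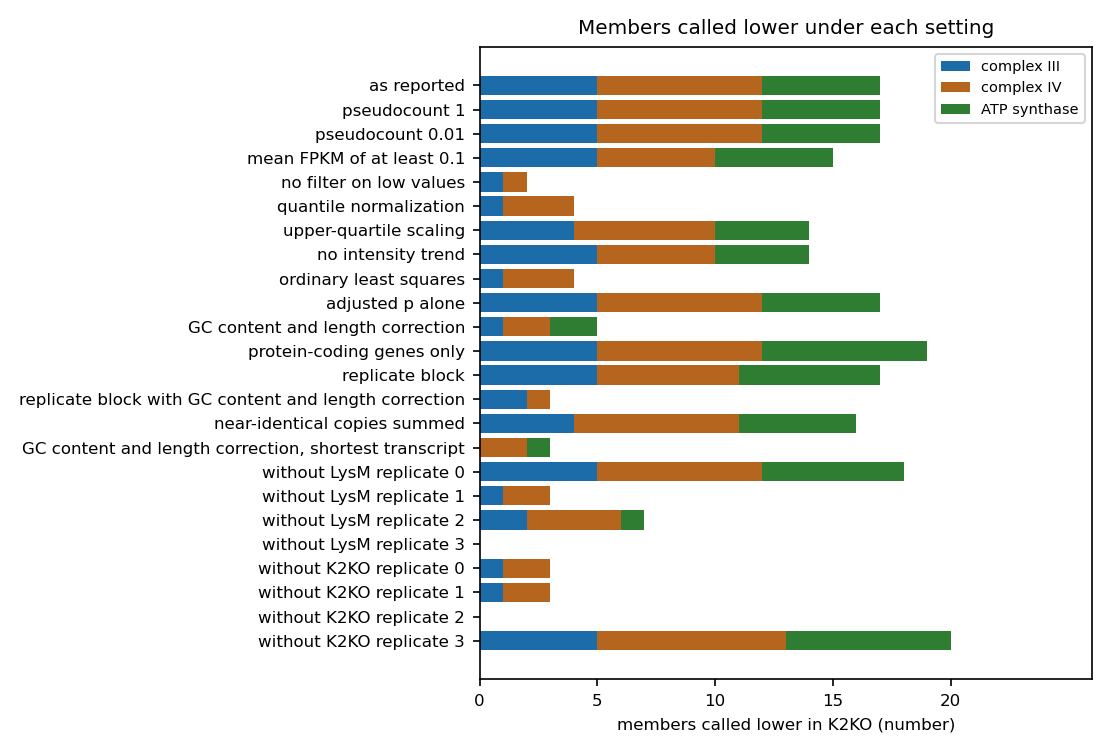
Number of members called lower in the libraries labelled K2KO (horizontal axis) under each setting (vertical axis), stacked by complex. The count is 17 as reported and lies between 0, without LysM3 or K2KO2, and 20, without K2KO3.

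In complex III, all 5 genes for small subunits were lower in the libraries labelled K2KO and none of the 4 genes for the large ones passed the test. The small subunits are the accessory proteins Uqcrb, Uqcrq, Uqcrh, Uqcr10 and Uqcr11, which bind around the core. Their log2 fold changes ran from -0.55 to -0.27. The large subunits are the core proteins Uqcrc1 and Uqcrc2, the Rieske iron-sulfur protein Uqcrfs1 and cytochrome c1 (Cyc1), and theirs ran from -0.13 to 0.11. The median over the 9 genes was -0.27. Only the call of Uqcrq held after a correction for the GC content and length of the transcripts, described below (log2 fold change -0.48, adjusted p = 0.0309), and with the shortest of its equally ranked transcripts none of the 5 passed. Corrected log2 fold changes were -0.067 for Uqcr11 (adjusted p = 0.658), -0.064 for Uqcr10 (adjusted p = 0.643), -0.23 for Uqcrb (adjusted p = 0.0541) and -0.33 for Uqcrh (adjusted p = 0.0572).

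Uqcr11 (chr10:80402997-80406830, minus strand), whose promoter is shown above, encodes an accessory subunit of the complex. It was measured at 218, 207, 206 and 223 FPKM in LysM0 to LysM3 and at 150.3, 163, 161 and 185 FPKM in K2KO0 to K2KO3. Each library labelled K2KO was below each LysM library, and the groups did not overlap (log2 fold change -0.38, standard error 0.0741, adjusted p = 0.0145). Uqcrq (chr11:53427922-53430831, minus strand) encodes a subunit close to the ubiquinone site and had the largest decrease of the complex, at 288, 297, 289.5 and 314 FPKM in LysM0 to LysM3 and at 192, 183, 184 and 264 FPKM in K2KO0 to K2KO3, and again the groups did not overlap (log2 fold change -0.55, standard error 0.116, adjusted p = 0.0176). K2KO3 stood well above the other 3 libraries labelled K2KO. Uqcr10 (chr11:4701973-4704342, minus strand) encodes a membrane subunit near cytochrome c1 and lay at 278, 281, 296 and 317 FPKM in LysM0 to LysM3 and at 204, 218, 235 and 270.4 FPKM in K2KO0 to K2KO3, with no overlap (log2 fold change -0.34, standard error 0.093, adjusted p = 0.0336).

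Uqcrh (chr4:116066965-116075071, minus strand), the hinge protein between cytochrome c1 and cytochrome c, was the most abundant gene of the complex, at 352, 414, 487 and 451 FPKM in LysM0 to LysM3 and at 279, 283, 335 and 363 FPKM in K2KO0 to K2KO3. LysM0 lay below K2KO3, so the groups overlapped (log2 fold change -0.43, standard error 0.122, adjusted p = 0.0365). A listed gene on the opposite strand, Gm12854, overlaps its span, and its level was 229.6 ± 26.04 FPKM (SD, n = 4) for LysM and 179.8 ± 22.8 FPKM (SD, n = 4) for K2KO. The strand setting of the quantification is not given in the sources used here, so reads of these genes may have been shared. Uqcrb (chr13:66900617-66905378, minus strand), which binds next to cytochrome b, was measured at 114, 113, 124 and 124 FPKM in LysM0 to LysM3 and at 89.6, 95.9, 102 and 108 FPKM in K2KO0 to K2KO3, with no overlap (log2 fold change -0.27, standard error 0.0732, adjusted p = 0.0351). It has 3 near-identical copies, and the call was lost when they were summed (-0.19, adjusted p = 0.0608).

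Among the large subunits, Uqcrc2 had the highest fold change of the complex and Cyc1 the smallest in size. Uqcrc2 (chr7:120635176-120659524, plus strand) was measured at 39.4, 37.4, 38.1 and 36.8 FPKM in LysM0 to LysM3 and at 38.8, 43.6, 43.0 and 38.7 FPKM in K2KO0 to K2KO3, and the groups overlapped (log2 fold change 0.11, standard error 0.0613, adjusted p = 0.213). Cyc1 (chr15:76343523-76346260, plus strand), which hands electrons to cytochrome c, was measured at 77.6, 68.5, 64.9 and 68.9 FPKM in LysM0 to LysM3 and at 66.8, 77.3, 69.4 and 70.6 FPKM in K2KO0 to K2KO3 (log2 fold change 0.022, standard error 0.0732, adjusted p = 0.845). Uqcrc1 and Uqcrfs1 had log2 fold changes of -0.13 and -0.027 (adjusted p = 0.192 and 0.735).

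The summed FPKM of complex III came to 1531, 1587, 1666 and 1704 FPKM in LysM0 to LysM3 and to 1164, 1221, 1294 and 1461 FPKM in K2KO0 to K2KO3, and each library labelled K2KO was below each LysM library. The mean of the sum was 20.8% lower, where the sum of all tested genes was 11.0% lower. The ratio of the summed small to the summed large subunits was 4.44, 4.77, 5.32 and 5.20 in LysM0 to LysM3 (4.93 ± 0.405, SD, n = 4) and 3.67, 3.40, 3.69 and 4.42 in K2KO0 to K2KO3 (3.79 ± 0.436, SD, n = 4). This ratio did not overlap between the groups. It was formed after the calls were known and was not tested. Transcripts of the small subunits have 434 to 1521 bases and those of the large ones 1363 to 1896 bases, and length moved with the fold change over all genes, as given below.

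**Figure D2:**
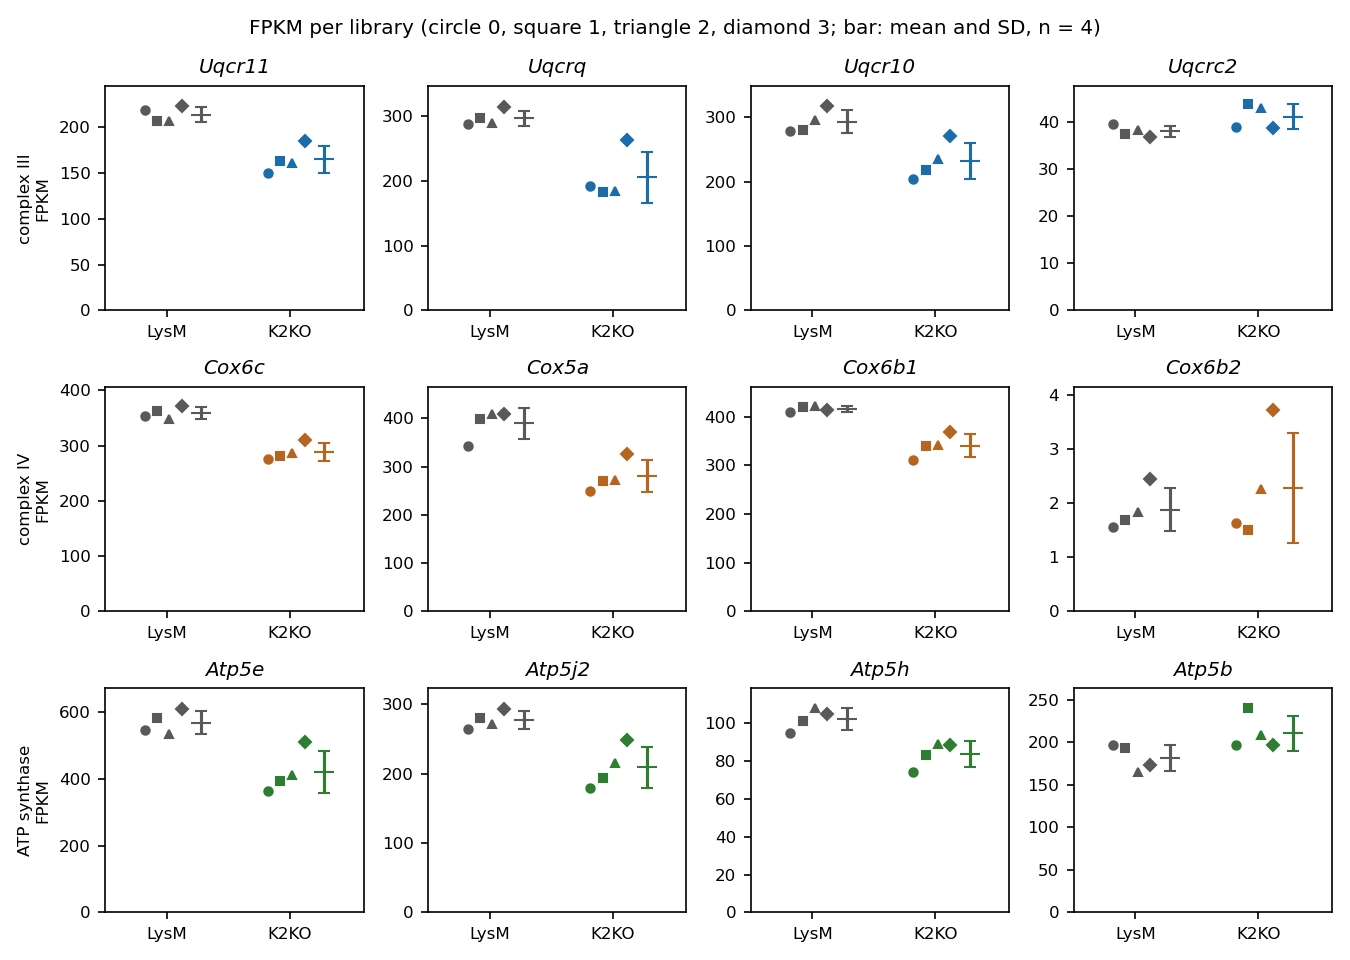
FPKM of 12 members (vertical axes, from 0) in the 8 libraries, with the number of the library as the symbol and the mean and SD of each group beside them (n = 4). Rows are complexes III, IV and ATP synthase, and columns hold the 3 members with the lowest p and, last, the member with the highest log2 fold change. In 9 of the 12 panels the libraries labelled K2KO all lie below the LysM libraries, and in that of Atp5b they lie above.

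In complex IV, 7 of the 14 tested genes were lower in the libraries labelled K2KO, with log2 fold changes of -0.60 to -0.29, and the other 7 did not pass. The 7 were Cox4i1, Cox5a, Cox6a1, Cox6b1, Cox6c, Cox7a1 and Cox7c. These nuclear subunits surround the mitochondrially encoded core and stabilise or regulate it. Among the 10 genes for the forms that most tissues use, 6 were lower, and among the 4 tested genes for other forms, 1 was. The median over the 14 genes was -0.30. After the GC content and length correction 2 of the 7 calls held, those of Cox5a (log2 fold change -0.39, adjusted p = 0.0196) and Cox7c (-0.36, adjusted p = 0.0478). Cox6c kept an adjusted p under 0.05 but not the fold (-0.23, adjusted p = 0.0309), and the corrected log2 fold changes of the other 4 ran from -0.34 (Cox7a1, adjusted p = 0.256) to -0.09 (Cox4i1, adjusted p = 0.367).

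Cox6c (chr15:35925886-35938246, minus strand), a membrane subunit, had the lowest p of the complex, with values at 353, 363, 348 and 371 FPKM in LysM0 to LysM3 and at 275, 282, 286 and 311 FPKM in K2KO0 to K2KO3, with every library labelled K2KO below every LysM library (log2 fold change -0.32, standard error 0.0618, adjusted p = 0.0141). Cox5a (chr9:57521274-57532426, plus strand), which with Cox4i1 joins the complex early in assembly, was measured at 341, 398, 409.6 and 408 FPKM in LysM0 to LysM3 and at 249.8, 271, 272 and 327 FPKM in K2KO0 to K2KO3, and the groups did not overlap (log2 fold change -0.48, standard error 0.0972, adjusted p = 0.0153). Cox6b1 (chr7:30616861-30626151, minus strand), which connects the monomers of the dimer on the side of the intermembrane space, was measured at 409, 419.8, 421 and 414 FPKM in LysM0 to LysM3 and at 312, 341, 342 and 369 FPKM in K2KO0 to K2KO3. The LysM libraries lay close together, and those labelled K2KO all lay lower (log2 fold change -0.29, standard error 0.0659, adjusted p = 0.0208).

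Cox4i1 (chr8:120668222-120674207, plus strand), the largest nuclear subunit and a site of regulation by ATP, was the most abundant of all 42 genes, at 828, 922, 912 and 919.9 FPKM in LysM0 to LysM3 and at 624, 664, 722 and 813 FPKM in K2KO0 to K2KO3. The groups did not overlap (log2 fold change -0.35, standard error 0.0913, adjusted p = 0.0301). Cox7c (chr13:86044816-86046904, minus strand) was measured at 29.7, 31.3, 27.8 and 30.5 FPKM in LysM0 to LysM3 and at 19.6, 20.1, 21.8 and 27.8 FPKM in K2KO0 to K2KO3. K2KO3 lay just below LysM2, and the groups did not overlap (log2 fold change -0.43, standard error 0.107, adjusted p = 0.0265). Cox6a1 (chr5:115345642-115348981, minus strand), the form of subunit VIa outside heart and muscle, was measured at 581, 611, 477 and 572 FPKM in LysM0 to LysM3 and at 363, 414, 395 and 518 FPKM in K2KO0 to K2KO3. Here K2KO3 lay above LysM2 (log2 fold change -0.41, standard error 0.121, adjusted p = 0.0411).

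The forms of a subunit could be compared roughly side by side, since FPKM are per length. Cox7a1, the heart and muscle form of subunit VIIa, was measured at 13.3, 18.9, 19.7 and 16.4 FPKM in LysM0 to LysM3 and at 11.1, 9.51, 9.35 and 15.3 FPKM in K2KO0 to K2KO3, with K2KO3 above LysM0 (log2 fold change -0.60, standard error 0.173, adjusted p = 0.0392). Its general counterpart Cox7a2 was more abundant at 141 ± 8.35 FPKM and 124 ± 6.54 FPKM (SD, n = 4) and did not pass (log2 fold change -0.18, adjusted p = 0.0807). Cox7a2l, a further relative of subunit VIIa, had the smallest fold change of the complex. It was measured at 193, 199, 223 and 223 FPKM in LysM0 to LysM3 and at 182, 187, 212 and 204 FPKM in K2KO0 to K2KO3, with overlapping groups (log2 fold change -0.095, standard error 0.0784, adjusted p = 0.396), and its sign turned to 0.087 with quantile normalization.

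Cox6a2, the muscle form of subunit VIa, was near the filter at 0.99, 2.23, 2.39 and 2.10 FPKM in LysM0 to LysM3 and at 1.32, 0.946, 1.26 and 0.702 FPKM in K2KO0 to K2KO3 and had the lowest log2 fold change of the 39 tested members (log2 fold change -0.78, standard error 0.293, adjusted p = 0.086), but it did not pass and its groups overlapped. Cox6b2, the testis form of subunit VIb, was measured at 1.55, 1.69, 1.84 and 2.44 FPKM in LysM0 to LysM3 and at 1.64, 1.51, 2.27 and 3.72 FPKM in K2KO0 to K2KO3. K2KO3 had the highest value (log2 fold change 0.20, standard error 0.266, adjusted p = 0.607), and without that library the log2 fold change was -0.057. Cox4i2, the lung form of subunit IV, lay between 0.111 and 0.791 FPKM in all 8 libraries and was under the filter.

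The remaining general forms did not pass. Cox8a, whose promoter is shown above, was at 546 ± 31.4 FPKM and 466 ± 47.8 FPKM (SD, n = 4, log2 fold change -0.23, adjusted p = 0.0785). Cox5b and Cox7b, a zinc-binding and a membrane subunit, had log2 fold changes of -0.11 and 0.10 (adjusted p = 0.404 and 0.351). The summed FPKM of complex IV came to 3559.6, 3796, 3607 and 3782 FPKM in LysM0 to LysM3 and to 2694, 2878, 2964 and 3376 FPKM in K2KO0 to K2KO3. The groups did not overlap, and the mean was 19.2% lower in the libraries labelled K2KO, where the sum of all tested genes was 11.0% lower. This order is of sums not divided by library totals. As a share of the totals, all members together overlapped between the groups, as given below.

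Cytochrome c, which carries electrons from complex III to complex IV, is encoded by Cycs and was under the filter, at 0.83, 0.759, 1.00 and 0.728 FPKM in LysM0 to LysM3 and at 0.881, 0.639, 0.813 and 0.843 FPKM in K2KO0 to K2KO3. The groups overlapped (log2 fold change -0.056, adjusted p = 0.828 among genes with a mean of at least 0.1 FPKM). A listed gene of near-identical sequence, Gm10053 (99.9% identity over 946 bases), was measured at 5.91, 6.15, 7.24 and 5.61 FPKM in LysM0 to LysM3 and at 8.38, 7.93, 8.57 and 7.02 FPKM in K2KO0 to K2KO3, and it was higher in the K2KO columns (log2 fold change 0.35, adjusted p = 0.0313), although K2KO3 lay below LysM2. With the copies added to Cycs the sum was higher as well (log2 fold change 0.30, adjusted p = 0.0424).

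In the ATP synthase, 5 of the 16 tested genes were lower in the libraries labelled K2KO, with log2 fold changes of -0.45 to -0.29, and none was higher. The 5 were Atp5d and Atp5e of the F1 part, Atp5h of the peripheral stalk, Atp5j2 of the membrane part and Atp5g1 of the c ring. The 3 largest F1 subunits did not pass, and their log2 fold changes were -0.014 (Atp5a1), 0.21 (Atp5b) and 0.087 (Atp5c1). The median over the 16 genes was -0.16. After the GC content and length correction 2 of the 5 calls held, those of Atp5j2 (log2 fold change -0.31, adjusted p = 0.0393) and Atp5g1 (-0.43, adjusted p = 0.0444). That of Atp5g1 was lost in the correction with the shortest of its equally ranked transcripts (-0.065, adjusted p = 0.636), and without a correction it was lost when its near-identical copies were summed (-0.19, adjusted p = 0.133). Corrected log2 fold changes of the lost calls were -0.193 for Atp5e (adjusted p = 0.185), -0.0951 for Atp5d (adjusted p = 0.284) and -0.174 for Atp5h (adjusted p = 0.095).

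Atp5e (chr2:174461072-174464105, minus strand), the epsilon subunit, had the lowest p and the highest level among the ATP synthase genes. It was measured at 545, 582, 534 and 609 FPKM in LysM0 to LysM3 and at 364, 393, 412 and 509 FPKM in K2KO0 to K2KO3, with no overlap (log2 fold change -0.45, standard error 0.105, adjusted p = 0.0228). Atp5d (chr10:80138632-80145818, plus strand), the delta subunit, forms the central rotor stalk with the gamma and epsilon subunits. Its RNA was measured at 291, 318, 296 and 317 FPKM in LysM0 to LysM3 and at 213, 212, 228 and 289.6 FPKM in K2KO0 to K2KO3, and K2KO3 lay just below LysM0 (log2 fold change -0.38, standard error 0.102, adjusted p = 0.032). Atp5b (chr10:128083273-128090391, plus strand), the catalytic beta subunit, was measured at 196, 193, 164 and 174 FPKM in LysM0 to LysM3 and at 197, 240.4, 209 and 197 FPKM in K2KO0 to K2KO3. All libraries labelled K2KO lay above all LysM libraries by a narrow margin, but the difference did not pass (log2 fold change 0.21, standard error 0.0886, adjusted p = 0.115). It passed with quantile normalization (log2 fold change 0.395, adjusted p = 0.0385).

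Atp5a1, the alpha subunit, was at 215 ± 7.02 FPKM and 214 ± 15.7 FPKM (SD, n = 4), and Atp5c1, the gamma subunit, had an adjusted p of 0.3. Of the peripheral stalk genes, Atp5h (chr11:115415689-115419962, minus strand) was measured at 94.6, 101, 108 and 105 FPKM in LysM0 to LysM3 and at 74.1, 82.9, 89.1 and 88.2 FPKM in K2KO0 to K2KO3, with no overlap (log2 fold change -0.29, standard error 0.0758, adjusted p = 0.03). Its own FPKM were 37.3% of the sum with its near-identical copies, and for that sum the groups overlapped and the call was lost (-0.19, adjusted p = 0.101). The other peripheral stalk genes, Atp5f1, Atp5j and Atp5o, had log2 fold changes of -0.14, -0.071 and -0.11 and did not pass (adjusted p = 0.109, 0.441 and 0.227). Atp5j shares its span with Gabpa on the opposite strand, which is described below.

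Of the membrane part, Atp5j2 (chr5:145183698-145192062, minus strand), subunit f, was measured at 265, 281, 271 and 294 FPKM in LysM0 to LysM3 and at 179, 194, 215 and 248 FPKM in K2KO0 to K2KO3. The groups did not overlap (log2 fold change -0.42, standard error 0.0992, adjusted p = 0.0235). Atp5k, subunit e, fell short of the threshold (log2 fold change -0.33, adjusted p = 0.0523), and Atp5l, subunit g, was listed at only 5.52 ± 1.22 FPKM and 4.83 ± 0.645 FPKM (SD, n = 4), with most of its signal in copies. The c ring, through which the protons pass, is made from a trio of genes whose mature proteins are the same. Atp5g1 (chr11:96068852-96075670, minus strand) was measured at 49.4, 52.7, 50.6 and 48.2 FPKM in LysM0 to LysM3 and at 35.3, 39.4, 39.6 and 48.4 FPKM in K2KO0 to K2KO3, and K2KO3 lay above LysM3 (log2 fold change -0.31, standard error 0.0913, adjusted p = 0.0417). Atp5g3, the most abundant of the trio, was at 286 ± 11.3 FPKM and 239 ± 24.7 FPKM (SD, n = 4). Its groups did not overlap, but it missed the threshold (log2 fold change -0.26, adjusted p = 0.0507). Atp5g2, under the filter, was measured at 1.16, 0.868, 0.612 and 1.38 FPKM in LysM0 to LysM3 and at 0.269, 0.408, 0.241 and 0.604 FPKM in K2KO0 to K2KO3, again without overlap, and passed among genes with a mean of at least 0.1 FPKM (log2 fold change -1.21, adjusted p = 0.0339).

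Atp5s and Atp5sl carry the prefix but are not core subunits of the enzyme. Atp5s had the smallest fold change of the group. Its values lay at 2.44, 2.69, 2.59 and 3.11 FPKM in LysM0 to LysM3 and at 2.72, 2.49, 2.53 and 3.06 FPKM in K2KO0 to K2KO3 (log2 fold change -0.0026, standard error 0.105, adjusted p = 0.988). Atp5sl had a log2 fold change of -0.15 (adjusted p = 0.212). The summed FPKM of the ATP synthase genes came to 2753, 2907, 2803 and 2934 FPKM in LysM0 to LysM3 and to 2179, 2363, 2437 and 2703 FPKM in K2KO0 to K2KO3. Each library labelled K2KO was below each LysM library, and the mean was 15.1% lower. The summed FPKM of all tested genes was 11.0% lower. The sums per complex were not divided by library totals, so their separation is not that of a share of each library. Whether the complexes differed from each other was not tested.

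**Figure D3:**
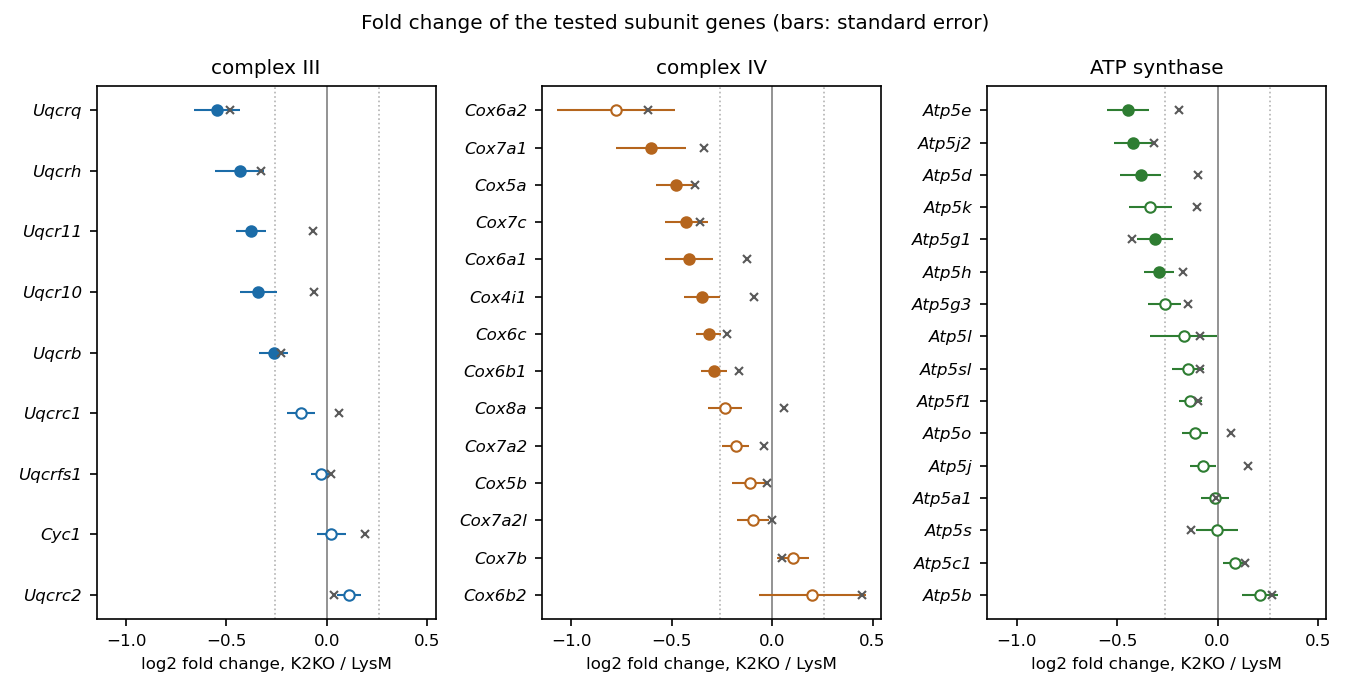
Log2 fold change of the 39 tested members, K2KO over LysM (horizontal axis, with standard errors), by complex. Filled points passed the test, crosses are the values after the GC content and length correction, and dotted lines mark 0.26 in both directions. All 5 small subunits of complex III (Uqcrq to Uqcrb) are filled and the 4 large ones are open.

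Across the 42 genes, the summed FPKM went from 8159 ± 252 (SD, n = 4) in the LysM libraries to 6685 ± 633 (SD, n = 4) in those labelled K2KO, with every library of the second group below the first. This mean was 18.1% lower. The summed FPKM of all tested genes was itself 11.0% lower, with overlapping groups. As a share of each library's total, the 42 genes made up 1.58%, 1.54%, 1.49% and 1.53% in LysM0 to LysM3 and 1.35%, 1.4%, 1.38% and 1.5% in K2KO0 to K2KO3, and by this share K2KO3 lay above LysM2.

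Many genes of these complexes have processed copies elsewhere in the genome, and reads of near-identical copies can be assigned to either. Of the 42 genes, 15 had a transcript of another gene with at least 95% identity over at least 200 bases. For Atp5l almost all of the signal stood in the copies. Gm10221, identical over 309 bases, was measured at 412, 428, 398 and 435 FPKM in LysM0 to LysM3 and at 268, 309, 334 and 390.4 FPKM in K2KO0 to K2KO3, and it was lower in the K2KO columns (log2 fold change -0.37, adjusted p = 0.0383). Atp5l summed with its copies was lower (log2 fold change -0.37, adjusted p = 0.0408), while Atp5l alone was not. For Cox6c a copy, Gm6265, was at a mean of 165 FPKM beside 324 FPKM for Cox6c and was lower too, and their sum was lower (log2 fold change -0.33, adjusted p = 0.0179).

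For 3 members the call was lost when the copies were added. Uqcrb was at a mean of 109 FPKM beside 129 FPKM in its copies, and the sum had a log2 fold change of -0.19 (adjusted p = 0.0608). Atp5h was at 92.8 FPKM beside 156 FPKM (-0.19, adjusted p = 0.101), and Atp5g1 was at 45.5 FPKM beside 100.2 FPKM (-0.19, adjusted p = 0.133). Atp5k gained a call (-0.34, adjusted p = 0.0413). In all, with copies summed, 16 of 40 tested members were lower and 1, Cycs, was higher. Over all 10921 genes of that fit, 939 were lower and 1075 higher. Of the 17 members called before, 14 were among the 16. How the quantification divided reads between a gene and its copies was not tested.

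**Figure D4:**
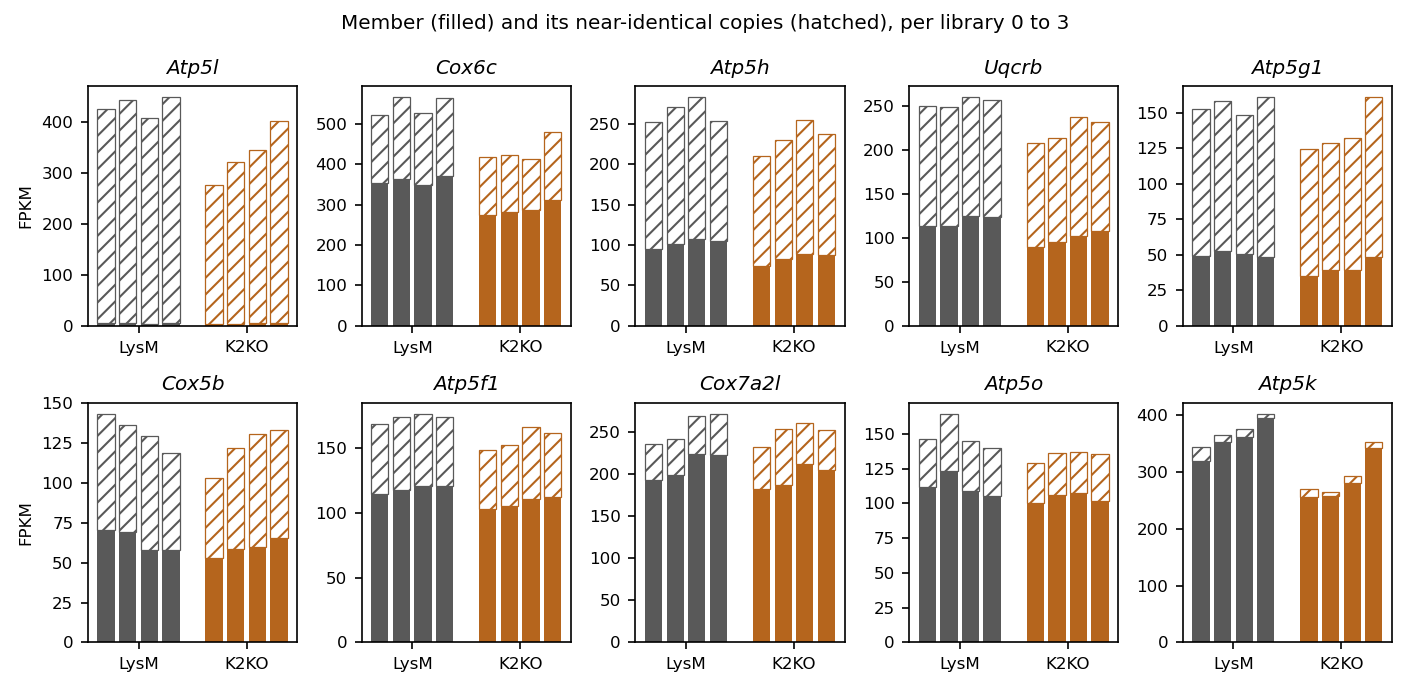
FPKM (vertical axes, from 0) of 10 members (filled) and of their near-identical copies (hatched, stacked on top) in the 8 libraries, in the order 0 to 3 within each group. In the panel of Atp5l nearly the whole bar is hatched, and in those of Atp5g1 and Atp5h the hatched part exceeds the filled part.

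Across the whole table, short transcripts were called lower more often than long ones, and 25 of the 39 tested members have transcripts under 1000 bases. Among all tested genes with a transcript under 1000 bases, 20.7% of 1533 were lower and their median log2 fold change was -0.20, against 6.62% of 9366 and 0.030 for longer ones. Among genes under 1000 bases with a mean of at least 50 FPKM, 40.1% of 469 were lower, with a median of -0.30. Among the members under 1000 bases, 15 of 25 (60.0%) were lower with a median of -0.33. With a mean of at least 50 FPKM it was 13 of 20 (65.0%), with a median of -0.325 against the -0.30 of all such genes. Of the 14 longer members 2 were lower, Uqcrq and Atp5g1. Their longest principal transcripts have 1521 and 4715 bases, but GENCODE ranks transcripts of 405 and 596 bases as equal. With the shortest of equally ranked transcripts all 17 members that were lower were under 1000 bases, and none of the 12 longer members passed. Over the 39 members Spearman's rho with the log2 fold change was 0.55 for length, -0.22 for GC content and -0.37 for the mean FPKM, and over 10899 genes it was 0.38, -0.43 and -0.32. These are descriptions across genes, which share the same 8 libraries.

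Each library was therefore also corrected for the GC content and length of the transcripts by a local regression. Then 5 members were lower (Uqcrq, Cox5a, Cox7c, Atp5j2 and Atp5g1), where 3.19% of all genes were. The medians became -0.064 for complex III, -0.11 for complex IV and -0.096 for the ATP synthase. With the shortest of the equally ranked transcripts, an alternative chosen after seeing the data, 3 members were lower, where 3.15% of all genes were. These were Cox5a (log2 fold change -0.38, adjusted p = 0.0195), Cox7c (-0.35, 0.0497) and Atp5j2 (-0.32, 0.0386). Uqcrq went to -0.25 (adjusted p = 0.177) and Atp5g1 to -0.065 (adjusted p = 0.636). The part of length and GC content in the result was not tested beyond this correction.

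**Figure D5:**
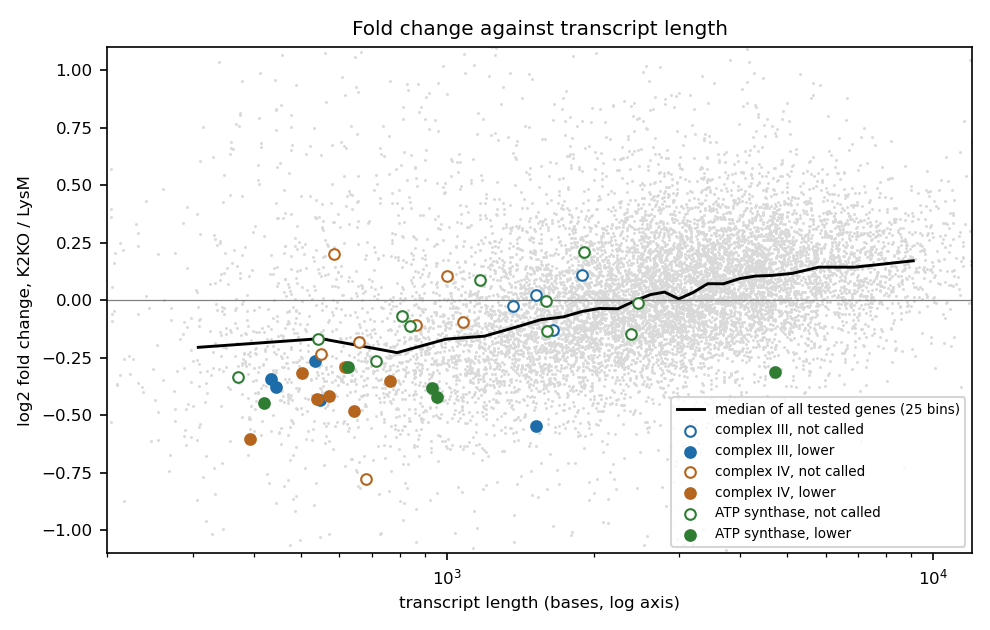
Log2 fold change, K2KO over LysM (vertical axis), against transcript length in bases (horizontal log axis) for all tested genes (grey), the members by complex (circles, filled where lower) and the median of all genes in 25 bins of length (line). The line is below 0 at the shortest lengths, and 15 of the 17 filled circles lie under 1000 bases.

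The other nuclear genes of the chain were described by lists. Of the 36 genes for nuclear subunits of complex I, which takes electrons from NADH, 17 were lower and none was higher (median -0.28), where 8.61% of all genes were lower and 9.84% higher. After the GC content and length correction 6 were lower, where 3.19% of all genes were. Ndufa7 had the lowest p (317.6 ± 4.66 and 239.8 ± 24.3 FPKM, SD, n = 4, log2 fold change -0.41, adjusted p = 0.0131), followed by Ndufa3 (log2 fold change -0.48, adjusted p = 0.0145) and Ndufa2 (log2 fold change -0.61, adjusted p = 0.0151), which was the most abundant. Of the 4 genes of complex II, which is wholly nuclear-encoded and takes electrons from succinate, none passed. Sdhb, its iron-sulfur subunit and most abundant gene, came nearest, at 132 ± 7.30 FPKM and 112 ± 9.14 FPKM (SD, n = 4, log2 fold change -0.24, adjusted p = 0.0476), and its fold was under the threshold. Sdha, Sdhc and Sdhd had log2 fold changes of -0.033, -0.081 and -0.10.

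Of 6 tested genes for assembly factors of complex III none passed (median 0.043). The lowest p were those of Uqcc3 (log2 fold change -0.43, adjusted p = 0.0649), Uqcc2 (log2 fold change -0.25, adjusted p = 0.13) and Hccs, which attaches heme to cytochromes c (log2 fold change 0.15, adjusted p = 0.151). Of 24 for complex IV, 5 were lower and 1 was higher (median -0.064), where 8.61% of all genes were lower and 9.84% higher. After the GC content and length correction 1 was lower, Cox17, where 3.19% of all genes were, and 2 were higher, Cox15 and Surf1, where 495 of 10899 genes were. Before the correction, the lower genes were Higd2a, a supercomplex factor (182 ± 9.38 and 143.7 ± 8.83 FPKM, SD, n = 4, log2 fold change -0.34, adjusted p = 0.0142), Cox14 (log2 fold change -0.43, adjusted p = 0.0159), the copper chaperones Sco2 (log2 fold change -0.38, adjusted p = 0.0179) and Cox17 (log2 fold change -0.47, adjusted p = 0.0296), the last being the most abundant of the list, and Cmc2 (log2 fold change -0.33, adjusted p = 0.0246). Cox15, which makes the heme of complex IV, was higher (3.78 ± 0.345 FPKM and 5.12 ± 0.445 FPKM, SD, n = 4, log2 fold change 0.43, adjusted p = 0.0176). Ndufa4, a subunit of complex IV despite its name, was at 199.7 ± 13.7 FPKM and 175 ± 21.5 FPKM (SD, n = 4) and did not pass (log2 fold change -0.20, adjusted p = 0.163), and neither did its relative AA467197.

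Of 5 tested assembly factors and inhibitors of the ATP synthase 2 were lower, where 8.61% of all genes were, and neither passed after the GC content and length correction. Atpif1, which blocks the reverse reaction of the enzyme, was measured at 499, 533, 535 and 592 FPKM in LysM0 to LysM3 and at 321, 426, 422 and 469 FPKM in K2KO0 to K2KO3, and the groups did not overlap (log2 fold change -0.41, standard error 0.116, adjusted p = 0.0374, corrected log2 fold change -0.25, adjusted p = 0.108). The gene 1110001J03Rik, an assembly factor, was at 17.7 ± 1.87 FPKM and 13.1 ± 1.44 FPKM (SD, n = 4, log2 fold change -0.43, adjusted p = 0.0207, corrected log2 fold change -0.17, adjusted p = 0.327). Atpaf2 had a log2 fold change of -0.16 (adjusted p = 0.183). A pair of small subunits that the rule on symbols does not reach, Usmg5 and 2010107E04Rik, did not pass (log2 fold change 0.16, adjusted p = 0.376 and log2 fold change -0.24, adjusted p = 0.0696), and they were added after their values were seen. Of the 6 mitochondrially encoded genes of these complexes only mt-Atp6 is listed, at 0 in all 8 libraries, and of the 7 of complex I only mt-Nd6, at 0 to 0.102 FPKM. The mitochondrial part of the complexes was not analysed here.

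Of 12 tested regulators of respiratory genes 1 was higher and none was lower, a count near the share over all genes (9.84% higher and 8.61% lower). Gabpa, which binds the ETS letters searched for above, was measured at 3.82, 3.45, 3.46 and 3.29 FPKM in LysM0 to LysM3 and at 5.51, 5.09, 4.99 and 4.34 FPKM in K2KO0 to K2KO3 and was higher, with no overlap (log2 fold change 0.49, standard error 0.0866, adjusted p = 0.012). After the GC content and length correction its log2 fold change was 0.28, adjusted p = 0.0405, just past the threshold. It shares its span with Atp5j on the opposite strand. Yy1 had an adjusted p of 0.0429 with a log2 fold change of 0.25, under the threshold, and Esrra, a nuclear receptor and the most abundant of the list, was at 26.1 ± 1.58 FPKM and 23.1 ± 0.786 FPKM (SD, n = 4, log2 fold change -0.17, adjusted p = 0.065). Nrf1 and Tfam, which packs and transcribes mitochondrial DNA, did not pass (log2 fold change -0.11, adjusted p = 0.299 and log2 fold change 0.34, adjusted p = 0.0719).

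Markers were used to check the cells. All 8 macrophage markers passed the filter, and their summed FPKM was 3927 to 4142 FPKM in the LysM libraries and 3683 to 3826 FPKM in those labelled K2KO. Each sum of the second group lay below each of the first, and the part of this in the results above was not tested. The summed FPKM of all tested genes was 11.0% lower with overlapping groups. Library totals were 497250 to 551610 FPKM for LysM and 448240 to 501960 FPKM for K2KO. The marker sums were not divided by these totals, so their order is not that of a share of each library. Cd68 was the most abundant (1834 ± 129 FPKM and 1779 ± 104 FPKM, SD, n = 4), and Csf1r, Adgre1, Itgam, Fcgr1 and Cd14 did not pass. Both copies of Lyz2 carry Cre in all mice, so its level is not that of the unaltered gene. Lyz2 was lower (18.6 ± 2.88 FPKM and 13.2 ± 1.73 FPKM, SD, n = 4, log2 fold change -0.49, adjusted p = 0.026), and Mertk was higher (log2 fold change 0.36, adjusted p = 0.0285). After the GC content and length correction neither passed, with log2 fold changes of -0.44 (adjusted p = 0.0602) for Lyz2 and 0.27 (adjusted p = 0.0639) for Mertk. Before the correction, 8.61% of all genes were lower and 9.84% higher. Cd14 was at 1028 ± 56.7 FPKM and 829 ± 118 FPKM (SD, n = 4), without overlap (log2 fold change -0.32, adjusted p = 0.063). The summed FPKM of the 8 neutrophil markers was 186 to 315 FPKM in the LysM libraries and 175 to 306 FPKM in those labelled K2KO. S100a9 was the most abundant, and of the 7 tested only Camp was lower (log2 fold change -1.14, adjusted p = 0.0178), where 8.61% of all genes were. The next lowest p were those of Elane (log2 fold change 0.47, adjusted p = 0.162) and S100a8 (log2 fold change 0.27, adjusted p = 0.351). The defining gene Ly6g was under the filter.

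The 5 dendritic cell markers summed to 4.32 to 10.9 FPKM in the LysM libraries and 5.31 to 6.24 FPKM in those labelled K2KO, mostly Batf3, the 1 tested (log2 fold change -0.58, adjusted p = 0.13). The 4 B cell markers summed to 1.53 to 4.58 FPKM in the LysM libraries and 3.48 to 5.28 FPKM in those labelled K2KO, with Cd79b as the most abundant and the 1 tested (log2 fold change 0.42, adjusted p = 0.146). T or NK cell markers summed to at most 0.394 FPKM in any library, erythroid markers to at most 1.77 FPKM (Hbb-bt was at 0 in all) and fibroblast markers to at most 3.41 FPKM, and none of these 3 lists had a tested gene. None of the lists for other cell types had a summed level that separated the groups.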

How the data were processed

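Total RNA of the BMDMs was sequenced by the study with a stranded total RNA kit (TruSeq) on an Illumina HiSeq instrument. Per the labels and the study's methods, the authors aligned the reads to the mm10 genome and computed FPKM with Cufflinks. The submitters' processing notes name STAR, Cufflinks and Cuffdiff and the methods name TopHat2, and versions and the strand setting are not given in the sources used here. The deposited values are FPKM per gene, 1 column per library, and 0 columns were left unmapped. The read depth per library is not given, so no counting interval was computed. Nothing in the labels ties a column to a mouse, and p-values measure the spread between these libraries.

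Here log2(FPKM + 0.1) of the 10920 genes with a mean of at least 1 FPKM was fitted with limma 3.58.1 in R 4.3.3 (lmFit, eBayes with an intensity trend, two-sided) over all 8 libraries, with Benjamini-Hochberg adjustment over all of these genes. Genes passed with adjusted p below 0.05 and a log2 fold change beyond 0.26 in size. A fold change is on the log2(FPKM + 0.1) scale, which understates changes of low genes. Names, positions, lengths and GC content came from GENCODE M21 (GRCm38), and near-identical copies from BLAST 2.17.0. GC content and length were corrected in each library with loess (span 0.3). Per complex, the values in every library are given for the 3 tested genes with the lowest p, the most abundant one, the one with the smallest fold change and the one that rose most in mean, and for other members where forms or copies are compared. The members, the lists and the tests were chosen with earlier results of these data known. Of the 46 protein-coding genes of the annotation whose symbols follow the rule, 4 were not analysed here (Cox7b2, Cox8b, Cox8c and a further gene named Atp5o). The alternatives were other pseudocounts (1 and 0.01), filters, scalings and fits, a replicate block and each library left out.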

Additional observations from a re-analysis of the deposited data

Results flagged for a closer look

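Uqcrq was at 264 FPKM in K2KO3, while the other 3 libraries labelled K2KO lay between 183 and 192 FPKM, a gap of 0.893 of the range of the 4. Cox4i1 was at 828 FPKM in LysM0, while the other 3 LysM libraries lay between 912 and 922 FPKM, a gap of 0.895 of the range. These were the 2 libraries far from the others of their group among 86 groups of 4 examined, where chance alone gives 4.3 at 1 in 20.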

How the results depend on the processing

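As reported, 17 members (5 of complex III, 7 of complex IV, 5 of the ATP synthase) and 2014 genes in all were called. Without a filter on low values it was 2 members (1, 1 and 0) and 483 genes, and with ordinary least squares 4 (1, 3 and 0) and 746. With quantile normalization it was 5 (1, 3 and 1) and 1534 genes (699 lower and 835 higher). Of the 5 members 4 were lower and Atp5b was higher. With the GC content and length correction it was 5 (1, 2 and 2) and 843, and with the shortest transcript in it 3 (0, 2 and 1) and 858. At an unadjusted p under 0.05, 10 of 17 ATP synthase genes passed without a filter (5108 of all 23761 genes), 8 of 16 with ordinary least squares (3878 of 10920) and 2 of the 9 genes of complex III with the shortest transcript (3228 of 10899). Upper-quartile scaling gave 748 lower and 1335 higher genes (35.9% lower) against 940 and 1074 (46.7%) as reported.

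Leaving out 1 library gave 0 (without LysM3 or K2KO2) to 20 members (without K2KO3), with 0 to 5 of complex III, 0 to 8 of complex IV, 0 to 7 of the ATP synthase and 337 to 2837 genes in all. At an unadjusted limma p under 0.05, 20 of 39 members and 3199 of 10920 genes passed without LysM3, and 22 and 3496 without K2KO2. Of the 11 tested members whose sign turned, all outside the 17, 4 are among those named by rule. It turned for Cox7a2l with quantile normalization (0.087), for Atp5s with upper-quartile scaling (0.040) and without LysM3 (0.063), K2KO1 (0.033) or K2KO2 (0.027), for Cyc1 without LysM2 (-0.013) or K2KO1 (-0.019) and for Cox6b2 without K2KO3 (-0.057). The other 7 were Uqcrc1, Uqcrfs1, Cox8a, Atp5f1, Atp5o, Atp5j and Atp5a1. Of these Uqcrc1 (0.061), Uqcrfs1 (0.022), Cox8a (0.057), Atp5o (0.065) and Atp5j (0.15) were positive after the GC content and length correction. Over the libraries left out in turn, Atp5s ranged from -0.063 to 0.063 and Cox6b2 from -0.057 to 0.36. The cause was not tested.

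Deviations of same-numbered libraries correlated at -0.070, 0.020, 0.073 and -0.057, and LysM0 correlated best with K2KO1 (0.18). These values did not single out same-numbered libraries, but with so few libraries they cannot decide whether the numbers pair the samples. Summed FPKM rose with the library number in both groups. It went from 497250 to 551610 in LysM0 to LysM3 and from 448240 to 501960 in K2KO0 to K2KO3. Whether the groups share an order by number was not tested. With the replicate block 17 members (5, 6 and 6) and 2057 genes were called, 15 of the members being among the 17, and with the block and the GC content and length correction 3 (2, 1 and 0) and 668 (at an unadjusted limma p under 0.05, 6 of 16 ATP synthase genes and 3176 of 10899 genes). FPKM give no depth, so the precision of low values is unknown.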
